A study of Mus musculus with 15 samples.

Results

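Transcripts of 10 lipid droplet genes were followed through the 15 RNA-seq libraries: the perilipins Plin1, Plin2, Plin3, Plin4 and Plin5, the CIDE genes Cidec and Cidea, the FIT genes Fitm1 and Fitm2, and Bscl2, which encodes seipin. They were listed by name as members of these protein families, and the rows with their Entrez Gene numbers were found for 10 of 10 among the 26301 gene numbers of the count tables. All libraries came from 3T3-L1, a mouse preadipocyte line that becomes adipocytes under a hormone cocktail, and were made on day 2 of differentiation after induction with insulin, dexamethasone and IBMX, with 3 libraries in each of 5 groups. The sh-Empty group carried the control retroviral vector and the sh-Jmjd1a group a hairpin against Jmjd1a (gene symbol Kdm3a), an iron-dependent histone H3K9 demethylase. The other 3 groups were sh-Jmjd1a cells that also expressed LacZ as a control, wild-type JMJD1A, written JMJD1A(WT), or a JMJD1A with a mutated iron-coordination site, written JMJD1A(H1122A). Each group is a stably transduced cell line, so the LacZ, JMJD1A(WT) and JMJD1A(H1122A) cells received a second virus that sh-Empty and sh-Jmjd1a cells did not. The sources used here do not say that the libraries of a group came from separate cultures or infections, so p-values measure the spread between these libraries, which may be technical.

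Fat cells store triglyceride in droplets that form between the leaflets of the endoplasmic reticulum membrane. Seipin marks the sites where droplets form, and the FIT proteins are needed for their budding towards the cytosol. Perilipins coat the surface, where they govern the access of lipases to the stored fat, and CIDE proteins sit at contacts between droplets and move lipid from the smaller to the larger droplet. During differentiation the main coat protein is known to change from the widely expressed Plin2 to the adipocyte perilipin Plin1. Plin1, Plin4 and Cidec are known targets of the nuclear receptor PPARG.

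The promoter sequences of the genes on which the results turn are shown to let the starts of the genes that moved together be set beside that of Plin2, which did not fall with the hairpin. They are RefSeq windows of 250 bases before and 50 bases after a transcription start, taken from a table of GRCm38.p6 and found by exact match at 1 place each in mm9, the build of the counts. All 5 lie on the minus strand: Plin1 at chr7:86877613-86877912, Plin4 at chr17:56249156-56249455, Cidec at chr6:113384709-113385008, Fitm2 at chr2:163298316-163298615 and Plin2 at chr4:86315914-86316213. The sequences are written 5′ to 3′ along the gene, and capitals mark matches, on either strand, to TTGCNNAA (bound by C/EBP factors), AGGTCA (the core motif of nuclear receptors), DR1 (a direct repeat of that motif as bound by PPAR-RXR, with up to 2 mismatches in 12 positions), CCAAT (bound by NF-Y), TATAAA (the TATA box of some genes) or GGGCGG (bound by SP1).
Plin1: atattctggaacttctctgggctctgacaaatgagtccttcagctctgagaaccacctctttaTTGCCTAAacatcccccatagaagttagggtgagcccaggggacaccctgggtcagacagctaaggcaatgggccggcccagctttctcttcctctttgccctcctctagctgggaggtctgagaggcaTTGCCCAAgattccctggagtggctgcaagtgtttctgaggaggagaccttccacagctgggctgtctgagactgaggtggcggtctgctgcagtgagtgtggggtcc
Plin4: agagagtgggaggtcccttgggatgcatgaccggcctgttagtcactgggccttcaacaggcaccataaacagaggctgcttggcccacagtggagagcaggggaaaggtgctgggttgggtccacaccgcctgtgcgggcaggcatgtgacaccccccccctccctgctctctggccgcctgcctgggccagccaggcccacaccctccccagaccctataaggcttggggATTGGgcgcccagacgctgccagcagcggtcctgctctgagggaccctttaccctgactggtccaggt
Cidec: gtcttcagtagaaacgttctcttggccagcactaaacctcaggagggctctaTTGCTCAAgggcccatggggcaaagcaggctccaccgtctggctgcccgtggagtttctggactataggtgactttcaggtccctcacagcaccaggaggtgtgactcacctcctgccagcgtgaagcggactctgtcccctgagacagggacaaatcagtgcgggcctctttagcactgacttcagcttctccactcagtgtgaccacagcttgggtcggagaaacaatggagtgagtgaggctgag
Fitm2: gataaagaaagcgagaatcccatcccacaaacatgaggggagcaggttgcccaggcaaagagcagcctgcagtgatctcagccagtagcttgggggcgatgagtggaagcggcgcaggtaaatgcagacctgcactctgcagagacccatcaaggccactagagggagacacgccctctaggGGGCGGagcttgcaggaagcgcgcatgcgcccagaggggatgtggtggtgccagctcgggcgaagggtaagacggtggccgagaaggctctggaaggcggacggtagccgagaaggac
Plin2: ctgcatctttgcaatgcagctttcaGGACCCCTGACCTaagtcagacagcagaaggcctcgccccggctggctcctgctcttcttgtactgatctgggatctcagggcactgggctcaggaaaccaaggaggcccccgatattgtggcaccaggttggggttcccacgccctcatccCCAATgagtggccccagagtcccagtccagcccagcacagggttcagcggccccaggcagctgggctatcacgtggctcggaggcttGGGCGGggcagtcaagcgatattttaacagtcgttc

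In the Plin1 window the letters TTGCNNAA stood at -187 and -58, counted from the first transcribed base as 0, and in the Cidec window they stood at -198. They occurred in 10.8% of the 32851 windows of the RefSeq table. The other Cidec window, at chr6:113385705-113386004, held none of the motifs searched. That window lies at the 5′ end of the annotated Cidec gene, and the one shown above lies at a start inside the gene. The Plin2 window was the only member window with a match to DR1, at -225 on the opposite strand with 2 mismatches, and this match overlaps the AGGTCA at -218. DR1 matches occurred in 3.86% of all windows and AGGTCA in 16.3%. Plin4 held CCAAT at -18 on the opposite strand, and Fitm2 held GGGCGG at -68, against 37.4% and 35.7% of all windows. TATAAA was found in no member window and in 13.6% of all windows. By base composition, the Plin1 window had 2 CpG and the Fitm2 window 16, beside a median of 7 over all windows. Entries were found for 9 of the 10 members, with 13 windows. These matches are a description of letters, and binding was not measured in the libraries used here.

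On mm9, Plin1 spans chr7:86866050-86877662, Plin2 chr4:86294290-86315964, Cidec chr6:113374628-113385754, Fitm2 chr2:163292115-163298365 and Bscl2 chr19:8911957-8923173. Plin4 (chr17:56240014-56249225), Plin5 (chr17:56251024-56257019) and Plin3 (chr17:56418385-56429934) share a chromosome and the minus strand. Plin4 and Plin5 are neighbours with 1798 bases and no gene between them, and Plin3 lies 161365 bases further on, past 8 genes. Cidea is on chromosome 18 and Fitm1 on chromosome 14. An exon of Gng3 on the opposite strand covers 398 bases of Bscl2 exons, and the strand setting of the counting is not given in the sources used here. The other overlaps were 109 bases for Fitm1, 39 for Fitm2, 20 for Cidea and 6 for Plin4.

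Total counts were 11437058 to 25523148 per library with a median of 12916162, and the deepest was JMJD1A(WT) replicate 3. Kdm3a, the gene the hairpin targets, stood at 169, 171 and 183 CPM (counts scaled to library size, with TMM factors) in the sh-Empty libraries and at 128, 127 and 138 CPM in the sh-Jmjd1a libraries. Its log2 fold change was -0.42 (SE 0.048, adjusted p = 2.91e-08, edgeR quasi-likelihood test with Benjamini-Hochberg adjustment), so the transcript was lower but far from absent. LacZ cells had 122, 117 and 119 CPM, JMJD1A(WT) cells 1697 ± 69.0 CPM (SD, n = 3) and JMJD1A(H1122A) cells 2213 ± 90.1 CPM (SD, n = 3). Reads of the introduced and of the endogenous transcript share this gene number, and the mutant exceeded the wild type by 0.38 (SE 0.034) on the log2 scale.

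The lipid droplet genes differed widely in level. Per kilobase of exon (RPKM, on the union of annotated exons), the sh-Empty cells held most of Plin1, with 92.7 ± 1.52 RPKM (SD, n = 3), and of Cidec, with 88.6 ± 5.29 RPKM (SD, n = 3), and the ranges of these 2 genes overlapped. Then followed Plin2 at 55.3 ± 0.474 RPKM, Fitm2 at 42.4 ± 0.388 RPKM, Plin3 at 35.8 ± 1.71 RPKM and Plin4 at 26.2 ± 0.705 RPKM (SD, n = 3 each), with no overlap between neighbours in this order. Bscl2 was at 1.15 ± 0.0850 RPKM. With the longest transcript as the length, Plin2 came to 103 RPKM and Cidec to 95.6 RPKM in the same libraries, so the place of Plin2 in the order depends on the length used. In JMJD1A(H1122A) cells the order was another one, with Plin2 at 50.4 ± 1.02 RPKM and Plin3 at 42.5 ± 0.996 RPKM above Fitm2 at 24.3 ± 1.13 RPKM, Plin1 at 11.3 ± 0.937 RPKM, Cidec at 8.73 ± 0.697 RPKM and Plin4 at 8.54 ± 0.956 RPKM (SD, n = 3 each).

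**Figure D1:**
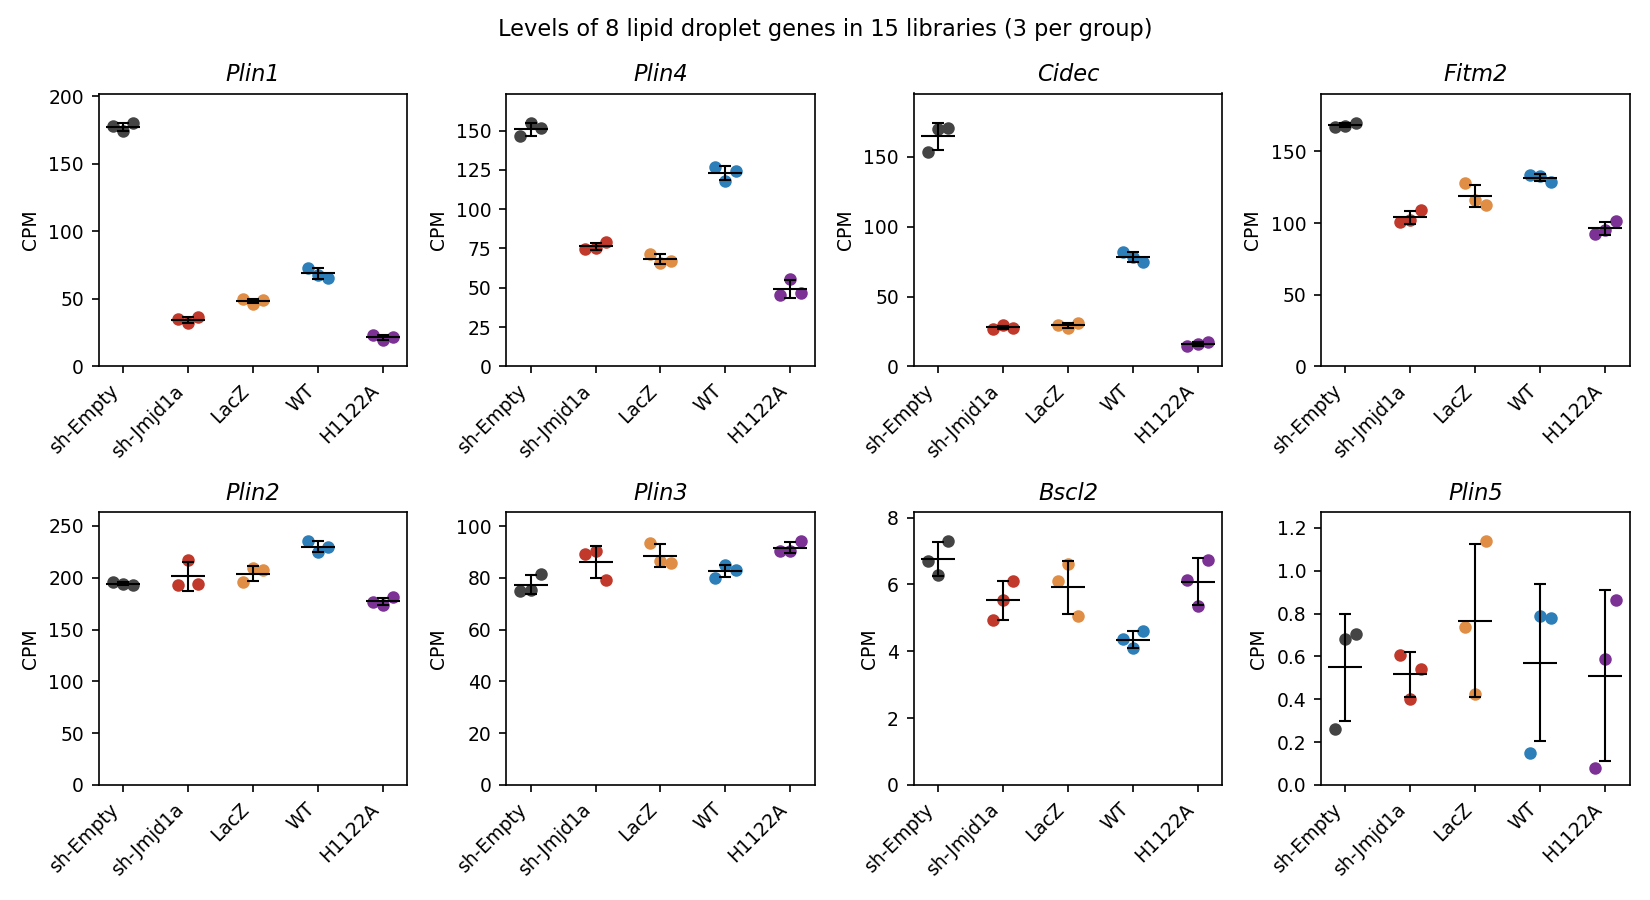
Level of 8 lipid droplet genes (vertical axis, CPM from 0, with its own scale in each panel) in the 15 libraries by group (horizontal axis); points are libraries, and the bar and whiskers are the mean and SD of 3 libraries. By group mean, Plin1, Plin4, Cidec and Fitm2 were highest in sh-Empty and lowest in H1122A cells, though the Fitm2 libraries of H1122A and sh-Jmjd1a cells overlapped. Plin2 was highest in WT cells and Plin5 did not exceed 1.14 CPM.

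The first comparison asks what knockdown of JMJD1A does to these transcripts. Transcripts of the adipocyte coat gene Plin1 and the droplet fusion gene Cidec fell the furthest of the members tested with the hairpin, to 19.6% and 16.9% of the sh-Empty mean. Those of the adipocyte coat gene Plin4 and the budding gene Fitm2 fell to 50.6% and 61.8%, and the widely expressed coat genes Plin2 and Plin3 were not called lower. Of the 7 members that passed the filter on low counts, 4 were lower (Plin1, Plin4, Cidec and Fitm2) and 0 higher at an adjusted p under 0.05, where 23.9% of the 12272 genes tested were lower and 22.3% higher. The higher members were 0 with DESeq2 too and 1 (Plin3) at an unadjusted p under 0.05 in edgeR. The median log2 fold change of the members tested was -0.70, and that of all genes tested -0.0032. In bulk RNA, fewer cells that express a gene and less of it per cell cannot be told apart.

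Plin1, which guards the stored triglyceride of fat cells from lipases, stood at 178, 175 and 180 CPM in the sh-Empty libraries and at 35.3, 32.3 and 36.7 CPM in the sh-Jmjd1a libraries. Every sh-Empty library was above every sh-Jmjd1a library, and the mean with the hairpin was 19.6% of the control. The log2 fold change was -2.36 (SE 0.058, adjusted p = 1.23e-22, edgeR quasi-likelihood test with Benjamini-Hochberg adjustment). Cidec, which drives the growth of large droplets, fell from 153, 170 and 170 CPM to 27.1, 29.3 and 27.2 CPM. The groups were again wide apart, with 16.9% of the control mean left and a log2 fold change of -2.57 (SE 0.063, adjusted p = 1.27e-22, same test).

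Plin4, an adipocyte perilipin found on young droplets, had 146, 154 and 152 CPM in sh-Empty and 74.5, 75.4 and 79.1 CPM in sh-Jmjd1a libraries. Its decrease was smaller than that of Plin1, with 50.6% of the control mean left and a log2 fold change of -0.99 (SE 0.051, adjusted p = 1.47e-15, edgeR). Fitm2, needed for droplet budding in many tissues, had 167, 167 and 170 CPM against 101, 102 and 109 CPM. The libraries of the 2 groups did not overlap, and the log2 fold change was -0.70 (SE 0.048, adjusted p = 8.30e-13, edgeR).

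Plin2, the coat of droplets in most cell types, had 196, 194 and 193 CPM in sh-Empty and 193, 217 and 194 CPM in sh-Jmjd1a libraries. The groups overlapped, and the 95% interval of its log2 fold change was -0.06 to 0.14. Plin3, which moves from the cytosol to new droplets, had 74.9, 75.5 and 81.6 CPM against 89.1, 90.5 and 79.0 CPM, with sh-Jmjd1a replicate 3 inside the control range. Its log2 fold change of 0.14 had an adjusted p of 0.0588 (edgeR). Under 11 of 15 alternatives Plin3 stayed uncalled, with an adjusted p of up to 0.213 (edgeR), and under 4 it passed. The adjusted p was then 0.0482 with RLE size factors and 0.0304 in a fit of all 15 libraries. It was 0.0421 without sh-Empty replicate 3 and 0.00188 without sh-Jmjd1a replicate 3. Bscl2 had 57 to 79 counts per sh-Jmjd1a library. Its libraries did not overlap between the groups, but its interval of -0.66 to 0.05 on the log2 scale covered no change.

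**Figure D2:**
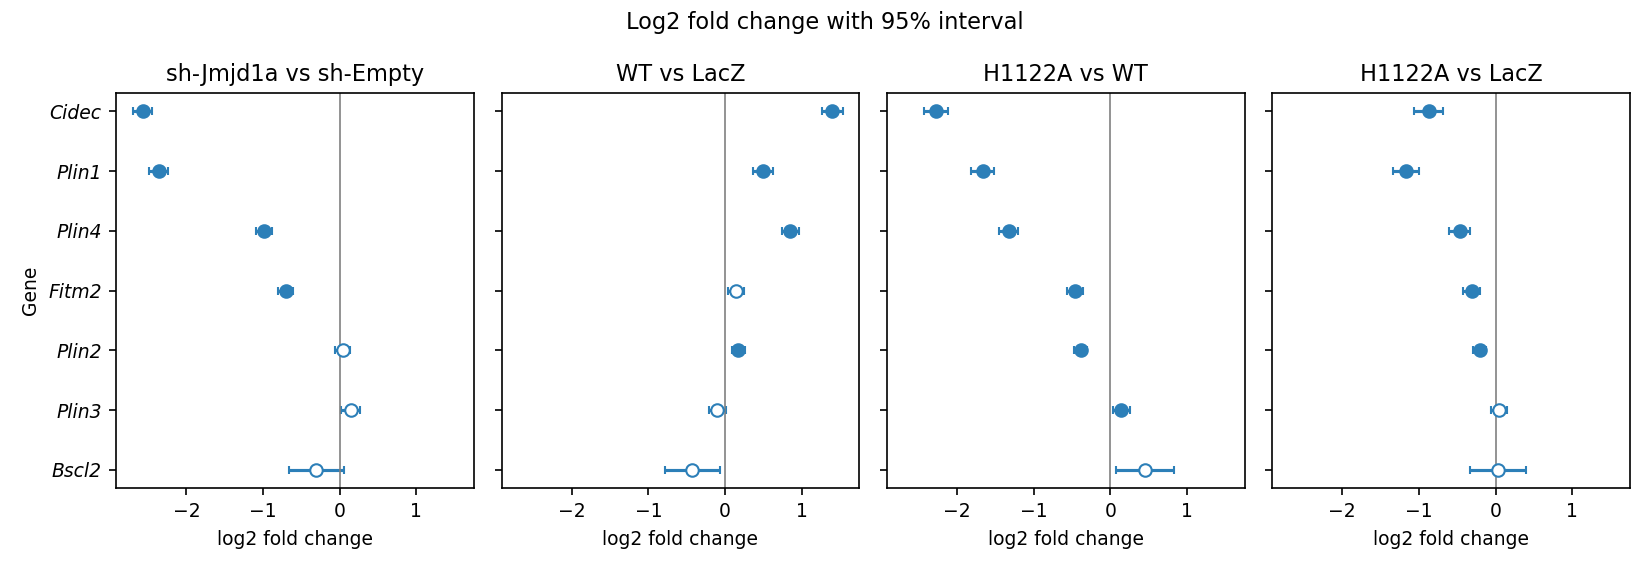
Log2 fold change (horizontal axis) of 7 lipid droplet genes (vertical axis) in 4 comparisons; whiskers are 95% intervals, filled points have an adjusted p under 0.05 from edgeR and open points do not. Cidec and Plin1 had the largest changes with the hairpin, -2.57 and -2.36, while Plin2 stood at 0.04 there and fell furthest, to -0.38, with H1122A against WT.

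The second comparison asks whether returning wild-type JMJD1A to knockdown cells raises the transcripts, with LacZ as the control. Cidec, Plin4, Plin1 and, by a small margin, Plin2 were higher with JMJD1A(WT), so 4 of the 8 members tested were higher and 0 lower, where 4.98% of the 12557 genes tested were higher and 4.52% lower. The lower members were also 0 with DESeq2, and 1 (Bscl2) at an unadjusted p under 0.05 in edgeR. The median log2 fold change was 0.16 for the members and -0.00014 for all genes tested. Cidec rose the most, from 29.7, 27.6 and 31.3 CPM with LacZ to 81.8, 78.2 and 74.8 CPM with JMJD1A(WT). All JMJD1A(WT) libraries were more than 2-fold above all LacZ libraries, and the log2 fold change was 1.40 (SE 0.069, adjusted p = 1.66e-20, edgeR quasi-likelihood test with Benjamini-Hochberg adjustment). Plin4 had 71.7, 65.6 and 66.9 CPM with LacZ and 127, 118 and 124 CPM with JMJD1A(WT), again with no overlap and with a log2 fold change of 0.85 (SE 0.058, adjusted p = 8.96e-16, edgeR).

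For Plin1 the gain was smaller, from 49.9, 46.5 and 49.0 CPM with LacZ to 73.1, 67.8 and 65.6 CPM with JMJD1A(WT), without overlap. Its log2 fold change was 0.50 (SE 0.064, adjusted p = 1.06e-07, edgeR), and its 95% interval of 0.37 to 0.63 lay below the interval of 1.26 to 1.54 of Cidec. Plin2 had 196, 209 and 207 CPM with LacZ and 235, 225 and 230 CPM with JMJD1A(WT). The difference was small and the libraries did not overlap (log2 fold change 0.17, SE 0.041, adjusted p = 0.00288, edgeR). Fitm2 had 128, 116 and 113 CPM against 134, 133 and 129 CPM, and though the libraries did not overlap its log2 fold change of 0.14 missed the threshold (adjusted p = 0.0567, edgeR). Its call changed with the fit, since the adjusted p was 0.0339 with a replicate block, 0.0488 with all 15 libraries and 0.0091 without LacZ replicate 1. Plin3 and Bscl2 had log2 fold changes of -0.10 and -0.42 with adjusted p of 0.299 and 0.157 (edgeR), though their libraries did not overlap between the groups either.

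The third comparison sets the iron-site mutant against the wild type in the same knockdown cells. All 5 of Plin1, Plin2, Plin4, Cidec and Fitm2 were lower with JMJD1A(H1122A), and Plin3 was slightly higher. These 5 lower and 1 higher of 8 members tested stand beside 11.7% lower and 12.1% higher of the 12557 genes tested, with a median log2 fold change of -0.42 for the members and -0.0012 for all genes. Cidec had 14.98, 16.1 and 17.6 CPM with the mutant, so every mutant library was far below every JMJD1A(WT) library. The log2 fold change was -2.27 (SE 0.080, adjusted p = 2.34e-26, edgeR quasi-likelihood test with Benjamini-Hochberg adjustment). Plin1 had 23.3, 19.7 and 22.1 CPM, and its log2 fold change was -1.66 (SE 0.077, adjusted p = 5.12e-22, same test). Plin4 had 45.4, 55.5 and 46.6 CPM, all far below the JMJD1A(WT) libraries, with a log2 fold change of -1.32 (SE 0.062, adjusted p = 9.68e-22, same test).

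Fitm2 had 92.2, 95.3 and 101 CPM with the mutant, without overlap with JMJD1A(WT), and a log2 fold change of -0.46 (SE 0.052, adjusted p = 1.75e-09, edgeR). Plin2 had 176, 174 and 181 CPM and differed by -0.38 (SE 0.042, adjusted p = 8.32e-10, edgeR). For this gene the mutant libraries were the lowest and the JMJD1A(WT) libraries the highest of all 15. Plin3 had 90.5, 90.4 and 94.2 CPM with the mutant and 80.1, 84.8 and 83.1 CPM with JMJD1A(WT), and its call was narrow (log2 fold change 0.14, SE 0.054, adjusted p = 0.0461, edgeR). It was lost with DESeq2 (adjusted p = 0.0676), with no filter, after thinning, and without LacZ replicate 3, any of the JMJD1A(H1122A) libraries, or JMJD1A(WT) replicate 1 or 3. Bscl2 had 6.15, 5.36 and 6.75 CPM with the mutant and 4.35, 4.09 and 4.60 CPM with JMJD1A(WT), a log2 fold change of 0.45 with a 95% interval of 0.08 to 0.83 and an adjusted p of 0.0732 (edgeR).

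Against LacZ, the mutant cells were lower in the same 5 genes, Plin1, Plin2, Plin4, Cidec and Fitm2, and higher in 0 of the 8 members tested, beside 4.46% lower and 4.78% higher of all genes tested. DESeq2 and an unadjusted p under 0.05 in edgeR likewise gave 0 higher members. The log2 fold changes were -1.17 (SE 0.082) for Plin1, -0.87 (SE 0.095) for Cidec, -0.47 (SE 0.067) for Plin4, -0.31 (SE 0.053) for Fitm2 and -0.21 (SE 0.043) for Plin2. Their adjusted p-values from edgeR were 5.87e-15, 3.74e-09, 1.72e-06, 4.02e-05 and 0.000734. None of the 3 mutant libraries overlapped the LacZ libraries for any of these 5 genes. How many of all genes tested were likewise apart was not counted, so lack of overlap is only described, here and elsewhere. This comparison shares its libraries with the 2 before it, so the 3 are not independent of each other. Plin3 and Bscl2 had log2 fold changes of 0.04 and 0.03, with 95% intervals of -0.07 to 0.15 and of -0.34 to 0.39.

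Set against the sh-Empty control in a fit of all 15 libraries, JMJD1A(WT) cells were lower in Plin1, Plin4, Cidec, Fitm2 and Bscl2 and higher in Plin2. These were 5 lower and 1 higher of 8 members tested, where 22.8% of the 12758 genes tested were lower and as many, 22.8%, higher. The log2 fold changes were -1.37 (SE 0.053) for Plin1, -1.08 (SE 0.054) for Cidec, -0.36 (SE 0.047) for Fitm2 and -0.29 (SE 0.051) for Plin4. All 4 had adjusted p-values of at most 4.77e-06 (edgeR quasi-likelihood test with Benjamini-Hochberg adjustment). As a share of the sh-Empty mean, JMJD1A(WT) cells had 81.5% of Plin4, 78.3% of Fitm2, 47.6% of Cidec and 38.8% of Plin1. Kdm3a itself was higher in JMJD1A(WT) than in sh-Empty cells, by 3.28 on the log2 scale (SE 0.042). The hairpin, the second virus and this excess of Kdm3a all separate the 2 groups, and their parts cannot be told apart.

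Plin2 exceeded its sh-Empty level in JMJD1A(WT) cells by 0.24 on the log2 scale (SE 0.043, adjusted p = 6.79e-06, edgeR), and the libraries did not overlap. Bscl2 had 6.69, 6.30 and 7.29 CPM in sh-Empty and 4.35, 4.09 and 4.60 CPM in JMJD1A(WT) cells. The libraries did not overlap for this low gene either (log2 fold change -0.63, SE 0.171, adjusted p = 0.00218, edgeR). Gng3, whose exon overlaps Bscl2 on the opposite strand, had 28 to 86 counts per JMJD1A(WT) library and 20 to 38 per sh-Empty library, or 3.11 ± 0.809 and 2.21 ± 0.886 CPM (SD, n = 3). Its part in the Bscl2 counts was not tested.

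The LacZ line and the sh-Jmjd1a line both carry the hairpin, and they differed in 2 members, Plin1 and Fitm2, both higher with LacZ. Thus 2 of 8 members tested were higher and 0 lower, beside 3.62% higher and 3.36% lower of all genes tested. At an unadjusted p under 0.05 in edgeR 1 member (Plin4) was lower, and with DESeq2 0. The log2 fold change of Plin1 was 0.48 (SE 0.071, adjusted p = 3.38e-06, edgeR), beside 0.50 between JMJD1A(WT) and LacZ, a comparison that shares the LacZ libraries. Fitm2 differed by 0.19 (SE 0.051, adjusted p = 0.0115, edgeR), and its adjusted p was 0.0678 and 0.0552 without sh-Jmjd1a replicate 1 or 2 and 0.140 without LacZ replicate 1. Cidec and Plin4 had log2 fold changes of 0.08 and -0.17 between these lines, with 95% intervals of -0.08 to 0.25 and of -0.29 to -0.04 and adjusted p-values of 0.651 and 0.0925 (edgeR).

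**Figure D3:**
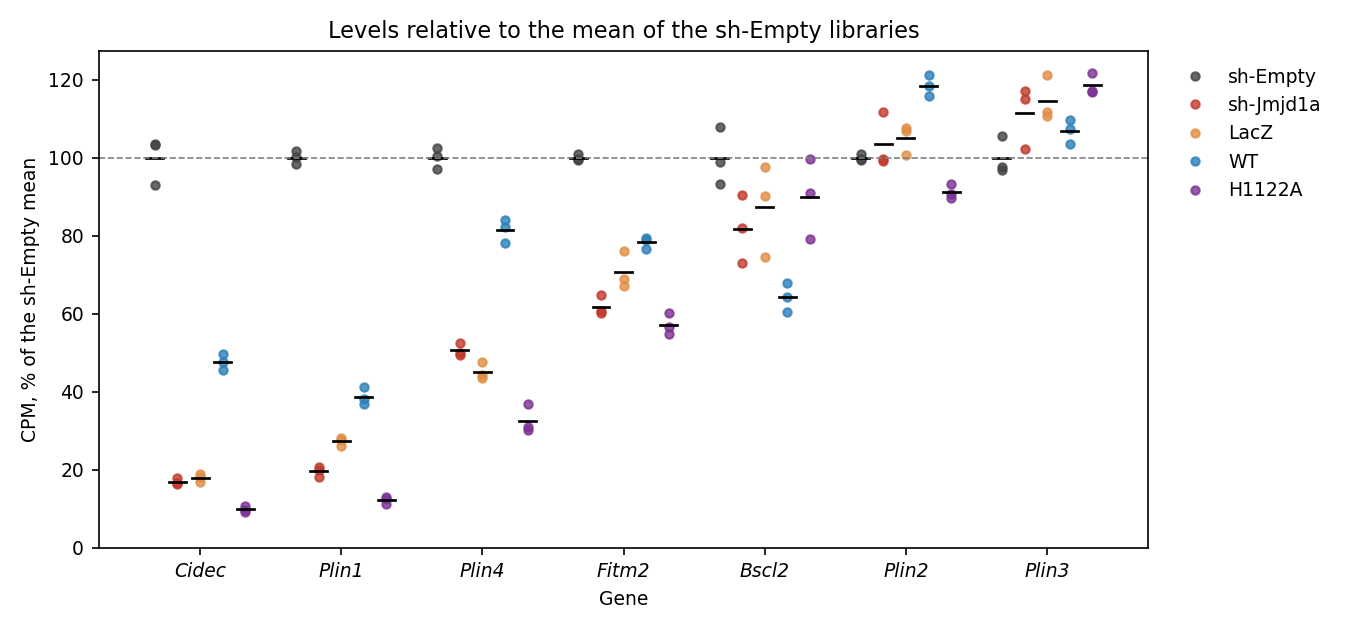
CPM of 7 lipid droplet genes (horizontal axis) as a percentage of the sh-Empty mean (vertical axis, from 0; dashed line at 100%); points are libraries coloured by group and short bars are means of 3 libraries. In WT cells Plin4 reached 81.5% and Plin1 38.8% of the control mean, whereas in H1122A cells they stood at 32.6% and 12.2%.

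Because the adipocyte perilipins Plin1 and Plin4 moved further than the widely expressed Plin2 and Plin3, the makeup of the perilipin transcripts changed with the group. Plin1 gave 43.7% to 44.4% of the summed perilipin RPKM in the sh-Empty libraries and 12.6% to 15.3% in the sh-Jmjd1a libraries. With LacZ its share was 17.9% to 18.9%, with JMJD1A(WT) 21.4% to 23.2% and with JMJD1A(H1122A) 9.23% to 10.8%. These ranges did not overlap between any of the 5 groups. The share of Plin2 was 26.3% ± 0.521 (SD, n = 3) in sh-Empty cells and 40.6% to 44.6% on average in the other groups. Plin3 made up 17.03% ± 0.579 in sh-Empty and 37.6% ± 0.245 in JMJD1A(H1122A) cells (SD, n = 3).

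The summed perilipin level was 210 ± 2.86 RPKM in sh-Empty, 129 ± 4.61 in sh-Jmjd1a, 137 ± 1.24 with LacZ, 161 ± 2.62 with JMJD1A(WT) and 113 ± 1.94 RPKM with JMJD1A(H1122A) (SD, n = 3 each). A share can rise when another gene falls, and the level of Plin2 itself was 0.24 higher on the log2 scale with JMJD1A(WT) than in sh-Empty cells. With the longest transcript as the length, the Plin1 share was 35.9% ± 0.277 in sh-Empty and 7.25% ± 0.569 in JMJD1A(H1122A) cells, and Plin2 was the larger of the 2 in all 5 groups. Within each library Plin1 exceeded Plin2 by 1.65 to 1.71 times in sh-Empty cells on the exon union, and was 0.208 to 0.242 of it in JMJD1A(H1122A) cells. The RPKM of Cidec relative to that of Plin1 was 0.890 to 1.00 in sh-Empty, 0.613 to 0.658 with LacZ and 1.15 to 1.19 with JMJD1A(WT).

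**Figure D4:**
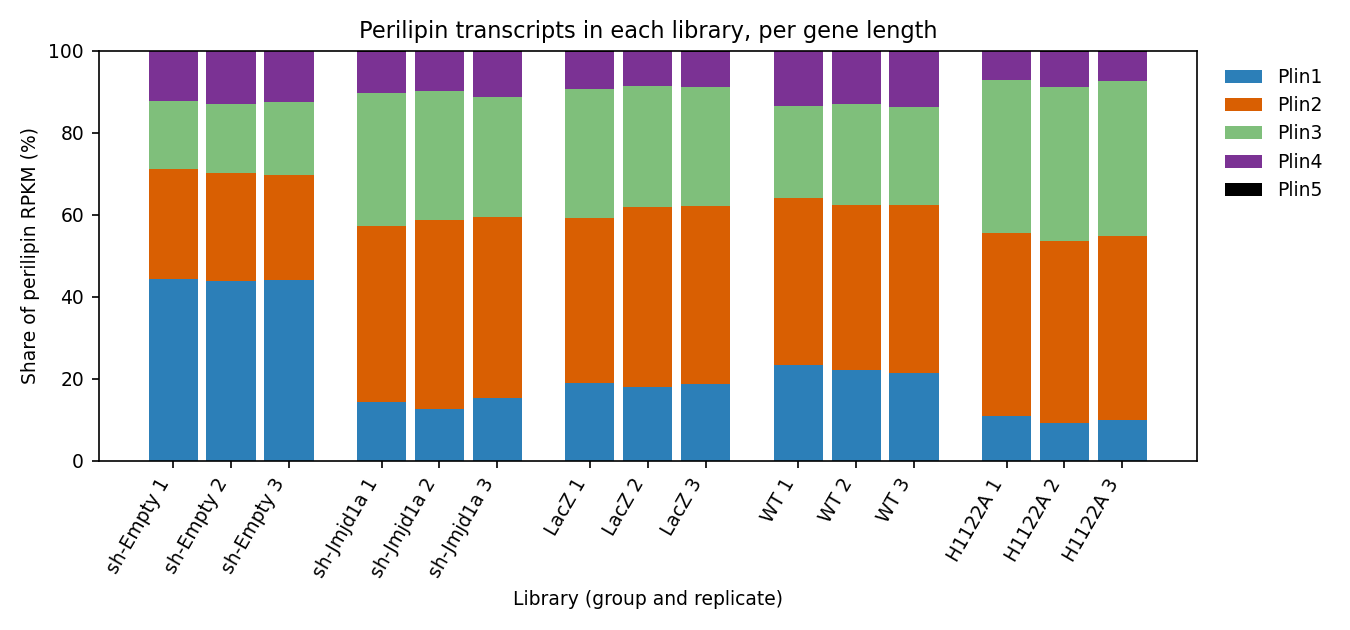
Share of the summed perilipin RPKM (vertical axis, %) that each perilipin gave in each of the 15 libraries (horizontal axis, group and replicate), with the union of exons as length. Plin1 gave 44.1% on average in sh-Empty and 10.0% in H1122A libraries, and Plin5, under 1% throughout, is too small to see.

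Plin5, the perilipin of oxidative tissues such as heart and muscle, was near the limit of detection, with 1 to 20 counts per library and 125 in all. It passed the filter only in the rescue and 15-library fits. Counts were 3, 8 and 11 in sh-Empty, 7, 5 and 7 in sh-Jmjd1a, 11, 6 and 16 with LacZ, 2, 10 and 20 with JMJD1A(WT) and 1, 8 and 10 with JMJD1A(H1122A), so all groups overlapped. The 95% interval of its log2 fold change between JMJD1A(WT) and LacZ was -1.37 to 0.75, and differences of that size were not detectable at this depth.

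Cidea, the CIDE protein typical of brown fat, had 0 counts in 11 of 15 libraries and 1 to 3 in the others, 9 in all. Fitm1, the FIT protein of skeletal and heart muscle, had 0 counts in 10 of 15 libraries and reached 4 in JMJD1A(WT) replicate 1, with 9 in all. Neither passed the filter in any fit. A count of 0 allows up to 3 counts, or 0.117 to 0.261 CPM in these libraries, by counting error alone. Of each pair of related genes, Cidec with Cidea and Fitm2 with Fitm1, the first was thus the measurable one on day 2. No fold change is given for Cidea or Fitm1.

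Over the 15 libraries, log2 CPM of Plin1, Plin4, Cidec and Fitm2 moved closely together, with Pearson's r from 0.91 to 0.98 over their 6 pairs. The points are 5 groups of 3 libraries, so these values describe the group pattern and carry no test. The r of Plin3 with these 4 genes was -0.82 to -0.75, and that of Plin2, Plin5 and Bscl2 with them lay between -0.13 and 0.52. Among 10109 genes whose mean reached 5 CPM, with the members left out of the ranking, those most like Plin1 were Car5b, Mapk6 and Slc5a6 (r = 0.993, 0.992 and 0.991). Car5b, a mitochondrial carbonic anhydrase, had 267 CPM in sh-Empty, 123 in sh-Jmjd1a, 135 with LacZ, 163 with JMJD1A(WT) and 100.2 CPM with JMJD1A(H1122A). The genes most like Cidec were Epb41l1, Agpat2 and Cyp51 (r = 0.987, 0.987 and 0.984). Agpat2 makes phosphatidic acid on the way to triglyceride and had 93.0, 21.3, 26.9, 53.6 and 17.6 CPM in the same order of groups. Plin2 had looser companions in Ear10, Lrwd1 and Lbp (r = 0.896, 0.890 and 0.890), and Lbp was highest with JMJD1A(WT), at 71.1 ± 2.36 CPM, and lowest with JMJD1A(H1122A), at 19.3 ± 2.39 CPM (SD, n = 3).

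Other genes of the droplet gave the setting of these changes. Of 52 tested genes for further lipid droplet proteins, 18 were lower and 13 higher with the hairpin, with a median log2 fold change of -0.05, beside 23.9% lower and 22.3% higher of all genes tested. Fabp4, a fatty acid carrier, and Lipe, the hormone-sensitive lipase, were the lowest by fold, with log2 fold changes of -1.87 and -1.61, and Lpcat2 and Lpcat1, which remodel the phospholipid of the droplet surface, were the highest, with 0.86 and 0.58. With JMJD1A(WT) against LacZ, 6 of the 52 were higher, led by Fabp4 (1.25) and Lipe (0.57), and 5 lower, led by the chaperone Dnajb4 (-0.25) and Spg20 (-0.18). With the mutant against JMJD1A(WT), 13 were lower, led by Fabp4 (-2.37) and Lipe (-0.86), and 11 higher, led by Mettl7a1 (0.57) and Lpcat2 (0.53). Over all genes tested, 4.98% were higher and 4.52% lower with JMJD1A(WT), and 11.7% lower and 12.1% higher with the mutant.

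Besides enzymes that build triglyceride, the list for triglyceride synthesis held Soat1, Soat2 and Cnep1r1, which are not such enzymes. Many of its genes were lower with the hairpin. Of 18 tested, 12 were lower with the hairpin, 6 were higher with JMJD1A(WT) against LacZ, and 8 were lower and 1 higher with the mutant against JMJD1A(WT). Their medians of log2 fold change were -0.21, 0.06 and -0.22. The shares of all genes tested were 23.9% lower, 4.98% higher, and 11.7% lower and 12.1% higher in these comparisons. Gpd1, which makes glycerol 3-phosphate, and Agpat2 had log2 fold changes of -3.02 and -2.14 with the hairpin. Gpd1 and Dgat2, which adds the last acyl chain, rose by 1.27 and 1.20 with JMJD1A(WT) and had log2 fold changes of -1.83 and -2.03 with the mutant. The gene higher with the mutant was Agpat4 (0.17, adjusted p = 0.00927, edgeR).

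Of 14 tested regulators known to act on lipid droplet genes, 8 were lower and 2 higher with the hairpin, beside 23.9% and 22.3% of all genes tested. Cebpa, a driver of terminal differentiation, and Nr1h3, the oxysterol receptor LXR alpha, had log2 fold changes of -1.35 and -1.23, while Cebpd, an early adipogenic factor, and Zfp423, a preadipocyte factor, rose by 0.59 and 0.55. Pparg was at 123 CPM in sh-Empty and 66.8 CPM in sh-Jmjd1a cells (log2 fold change -0.89, SE 0.054, adjusted p = 6.81e-14, edgeR). With JMJD1A(WT) against LacZ, 5 were higher and 2 lower: Zfp423 and Cebpa rose by 0.85 and 0.81, Pparg by 0.36, and Ppargc1a and Cebpd had log2 fold changes of -0.44 and -0.19. With the mutant against JMJD1A(WT), 6 were lower and 3 higher, with Cebpa at -1.86, Zfp423 at -1.001 and Pparg at -0.84, and with Cebpd at 0.34 and Stat5a at 0.21. All genes tested gave 4.98% higher and 4.52% lower in the former comparison, and 11.7% lower and 12.1% higher in the latter.

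Markers of the fat cell as a whole moved beside the lipid droplet genes. Of 15 tested adipocyte markers, 15 were lower with the hairpin, 14 higher with JMJD1A(WT) against LacZ and 15 lower with the mutant against JMJD1A(WT), with medians of -2.14, 0.95 and -1.76 on the log2 scale. The matching shares of all genes tested were 23.9%, 4.98% and 11.7%. Between the 2 knockdown lines, 8 of the 15 were higher and 0 lower with LacZ than in sh-Jmjd1a cells. Their median log2 fold change was 0.39, and 3.62% of all genes tested were higher and 3.36% lower. The list of 18 shares 2 genes with the regulators, 2 with the triglyceride enzymes and 3 with the wider droplet list. Its summed level was 6117 to 6177 CPM in sh-Empty, 2938 to 3082 in sh-Jmjd1a and 3810 to 3874 CPM with LacZ. It was 4436 to 4904 CPM with JMJD1A(WT) and 2871 to 2988 CPM with JMJD1A(H1122A). No marker was at 0 in all libraries, but 2 of the 18 were under 1 CPM in every library. The 16 preadipocyte and fibroblast markers summed to 22384 to 22714 CPM in sh-Empty cells and 34082 to 42248 CPM in the other groups. With the hairpin 10 of 14 tested were higher and 2 lower, beside 22.3% and 23.9% of all genes tested. Of 15 tested in the rescue groups, 4 were higher and 1 lower with JMJD1A(WT) against LacZ, with a median log2 fold change of -0.0042, and 6 were higher and 3 lower with the mutant against JMJD1A(WT), with a median of 0.19. Among all genes tested, 4.98% were higher and 4.52% lower with JMJD1A(WT), and 12.1% higher and 11.7% lower with the mutant. The part of a different share of differentiated cells in the values of the lipid droplet genes was not tested.

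Markers of other cell types were also read. Of 10 brown and beige markers, which include Cidea, 6 were under 1 CPM in every library and Ucp1 and Prdm16 were at 0, and the sum was 141 to 149 CPM in sh-Empty and 221 to 240 CPM elsewhere. With the hairpin, 2 of the 4 brown and beige markers tested were higher, beside 22.3% of all genes tested. Of 10 skeletal muscle markers, Myod1, Myog, Myf5, Ckm and Myh4 were at 0, yet the sum was 18.8 to 22.1 CPM with JMJD1A(WT) and 4.02 to 7.96 CPM elsewhere, with Des at 15.5 ± 1.20 CPM and Tnnt3 at 3.83 ± 0.372 CPM (SD, n = 3) in those libraries. These were 2 of the 3 muscle markers tested, both called higher in the JMJD1A(WT) libraries against the LacZ libraries, where 4.98% of all genes tested were higher. Of 8 macrophage markers 7, and of 7 endothelial markers 6, were under 1 CPM in every library, with sums of 1.56 to 5.04 and of 4.41 to 9.23 CPM. The part of these transcripts in the results for JMJD1A(WT) was not tested.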

How the data were processed

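Reads had been cleaned by the authors (fastp), mapped to mm9 (HISAT2) and assigned to genes (featureCounts). The values deposited are whole-number counts per Entrez Gene number, 1 table per library, not normalized. The labels and the paper name different NEBNext kits, of which the paper's is directional. Symbols were matched through a RefSeq table of GRCm38.p6, and gene spans and exon lengths came from GENCODE M1 on mm9. The members and gene lists were chosen with earlier results of these data known.

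Counts were analysed in R 4.3.3 with edgeR 4.0.16, limma 3.58.1 and statmod 1.5.0. TMM factors, filterByExpr with a minimum count of 10, robust quasi-likelihood fits (edgeR's newer method) and the quasi-likelihood F test with Benjamini-Hochberg adjustment over all genes tested at 0.05 were used. The knockdown groups (6 libraries) and the rescue groups (9 libraries) were fitted apart, and JMJD1A(WT) against sh-Empty and LacZ against sh-Jmjd1a in a fit of all 15 libraries, which also gave the CPM printed. SE is the log2 fold change divided by the root of F, and intervals are at 95%. Levels are means ± SD of 3 libraries. The fits were tested on simulated data with known changes.

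Depth was 11437058 to 25523148 counts per library, and replicate libraries differed by more than sampling noise (chi-square per degree of freedom 2.07 to 5.44 over 15 pairs). Floors for a count of 0 cover counting error only. The intervals of the fold changes rest on the quasi-likelihood fits, so they also take in the spread between these libraries. Named besides the members are Kdm3a, the 3 genes most correlated with each of Plin1, Plin2 and Cidec, and the 2 called genes of largest change per direction from each of 3 lists in the first 3 comparisons, at a mean of at least 5 CPM, with Pparg and Cebpa. Des, Tnnt3 and Gng3 were named after their values were seen. Alternatives were RLE size factors, DESeq2 1.42.0, 2 other filters, other sets of libraries in the fit, the legacy method, thinning, a threshold of 0.01, another gene length, a replicate block and each library left out.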

Additional observations from a re-analysis of the deposited data

How the results depend on the processing

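At the thresholds on the adjusted p, the counts of lower members did not move by over 1.5 times under the alternatives listed in the methods in any of the 6 comparisons, and neither did the count of higher members for JMJD1A(WT) against LacZ or against sh-Empty. The number of higher members with the hairpin went from 0 to 1 (Plin3) with RLE size factors and with all 15 libraries in 1 fit, and it was 0 to 1 when each library was left out. For the mutant against JMJD1A(WT) it went from 1 (Plin3) to 0 with DESeq2, with no filter, with libraries thinned to the smallest total and at an adjusted p under 0.01, and was 0 to 1 with each library left out. For LacZ against sh-Jmjd1a it went from 2 to 1 at an adjusted p under 0.01, and was 1 to 2 with each library left out. The cause was not tested.

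Of the log2 fold changes recomputed, 903 kept their direction and side of the threshold, and 14 turned their sign. Another 14 no longer passed the threshold and 7 came to pass it, all of them of Plin3 or Fitm2. The sign changes all came from leaving out a library, in values that had not passed the threshold. The lowest and highest values were -0.015 and 0.078 for Plin2 with the hairpin, -0.0099 and 0.079 for Plin2 and -0.021 and 0.080 for Plin3 between LacZ and sh-Jmjd1a, and -0.073 and 0.12 for Bscl2 in the mutant against LacZ. For Plin5 they were -0.74 and 0.071 for JMJD1A(WT) against LacZ, -0.84 and 0.21 for the mutant against JMJD1A(WT), and -0.30 and 0.46 for JMJD1A(WT) against sh-Empty. The sh-Jmjd1a replicate 2 library decided the sign of Plin2 with the hairpin.

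Libraries with the same replicate number hardly deviated together (r from -0.04 to 0.05 over 12 pairs). Whether they shared a culture or a handling batch was not tested. For JMJD1A(WT) against LacZ, 683 genes were lower and 710 higher with a replicate block, beside 568 and 625 without it. With the replicate block the higher members for JMJD1A(WT) against LacZ were 5 in place of 4, by Fitm2, and the block changed no other call of a member. Lengths from the longest transcript moved the RPKM of Plin2, Cidec and Bscl2 in 14 group means. Depth limits Plin5, Cidea and Fitm1, for which most libraries hold few counts. The log2 fold change of Plin3 for the mutant against JMJD1A(WT) was 0.13 to 0.16 with each library left out, while its adjusted p was 0.0341 to 0.149 (edgeR).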
